A study of Hemigymnus melapterus and Thalassoma lunare and Coris batuensis with 46 samples.

Results

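Coris batuensis and Labrichthys unilineatus were the 2 species of this series that the labels call non-cleaners, and they were compared here with each other by sample label, with all 9 Coris and all 8 Labrichthys libraries, 17 of the 46 libraries of the series. The labels call the other 3 species facultative cleaners, and they gave 29 libraries: 9 of Halichoeres melanurus and 10 each of Hemigymnus melapterus and Thalassoma lunare. Each library held RNA of a forebrain slice of 300 µm from 1 female fish, read by 3′ tag sequencing, which counts the polyadenylated end of each transcript. Per the labels, the slice held the pallial areas Dl and Dm with parts of the septal and striatal areas.

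Both groups shared sex, tissue, preservation of the whole head in RNAlater and library protocol, and the labels give no treatment for either. The time from capture to death ran from 6 to 28 minutes in the series and is not given per fish in the labels, nor is age, so neither could be compared between the species. As background, wrasses (Labridae) are reef fishes of very varied diets. Cleaners pick parasites off other fishes. Labrichthys unilineatus, the tubelip wrasse, feeds on coral polyps and is placed with the labrichthyine wrasses, the lineage that also holds the cleaner wrasses of the genus Labroides. Coris batuensis takes small bottom-living invertebrates. The fish areas Dl and Dm are regarded as counterparts of the mammalian hippocampus and basolateral amygdala, regions known for spatial and emotional learning. A contrast of a pair of non-cleaners asks how far the same brain region differs between species of the same labelled cleaning status.

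The authors deposited 2 tables of raw counts per fish, one on identifiers that begin with ENSONIT and one on identifiers that begin with Ldim_g. Neither set pairs its identifiers with gene names, so brain markers could not be checked, and what the transcripts encode is not given. In a tissue slice, fewer cells of a type and less RNA per cell cannot be told apart. Each mean below is followed by ± its SD over the fish of that species, which numbered 9 in Coris and 8 in Labrichthys. ENSONIT counts per library ranged from 14800 to 35321 in Coris and from 26996 to 53987 in Labrichthys. The shallowest was Coris batuensis 10, and the next lowest Coris library had 26789. Each of the 17 libraries correlated better with the mean of the other fish of its own species than with the other species, across tested features. Pearson r with the own species in the ENSONIT counts was 0.861 in Coris batuensis 10 and 0.913 to 0.962 in the other 16, and r with the other species was 0.572 to 0.689. The Ldim_g counts gave 0.914 to 0.969 and 0.608 to 0.689, over fish and features that are not independent. The first principal component carried 60.5% of the variance for ENSONIT and 67.9% for Ldim_g, and the fish of the 2 species did not overlap on it in either set.

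Reads from the 2 species aligned unequally. In the Ldim_g set, 58.1% ± 0.594 of the reads were listed as unaligned in Coris and 47.0% ± 1.21 in Labrichthys. The lowest Coris fish was at 57.5% and the highest Labrichthys fish at 49.0%, so no fish overlapped. The exact two-sided permutation test gave p = 4.11e-05, the smallest possible with 9 against 8 fish (Benjamini-Hochberg adjusted p = 0.00011 over 8 library measures). Reads outside genes made up 34.7% ± 0.619 in Coris and 44.2% ± 1.12 in Labrichthys (exact permutation adjusted p = 0.00011). Reads counted in genes made up 4.66% ± 0.306 and 5.53% ± 0.552, with an exact permutation adjusted p of 0.00165. Reads that diverge from a reference are more likely to go uncounted, so a count here reflects alignment as well as abundance. The part of alignment in the differences below was not tested.

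Libraries of the 2 species also differed in how their counts were spread over transcripts. The 10 most abundant transcripts of a library took 8.87% ± 0.988 of its ENSONIT counts in Coris and 10.9% ± 0.849 in Labrichthys (exact permutation p = 0.00074, adjusted p = 0.00148). Transcripts with at least 1 count numbered 7431 ± 1061 in Coris and 8113 ± 1026 in Labrichthys, and this difference did not pass the test (exact permutation p = 0.21, adjusted p = 0.21). After all libraries were thinned to 14800 counts the order turned, with 4998 ± 156 in Coris and 4786 ± 108 in Labrichthys (exact permutation p = 0.00769, adjusted p = 0.0103). The number detected at full depth thus moved with the number of counts, and at equal counts more transcripts were seen in Coris. Total ENSONIT counts averaged 29918 ± 6161 in Coris and 37892 ± 10279 in Labrichthys and did not pass the test (exact permutation adjusted p = 0.0835). Reads listed in the Ldim_g set averaged 580711 ± 123543 and 762158 ± 206735 and passed narrowly (exact permutation p = 0.0363, adjusted p = 0.0484), a call lost without any one of 12 of the 17 libraries.

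**Figure D1:**
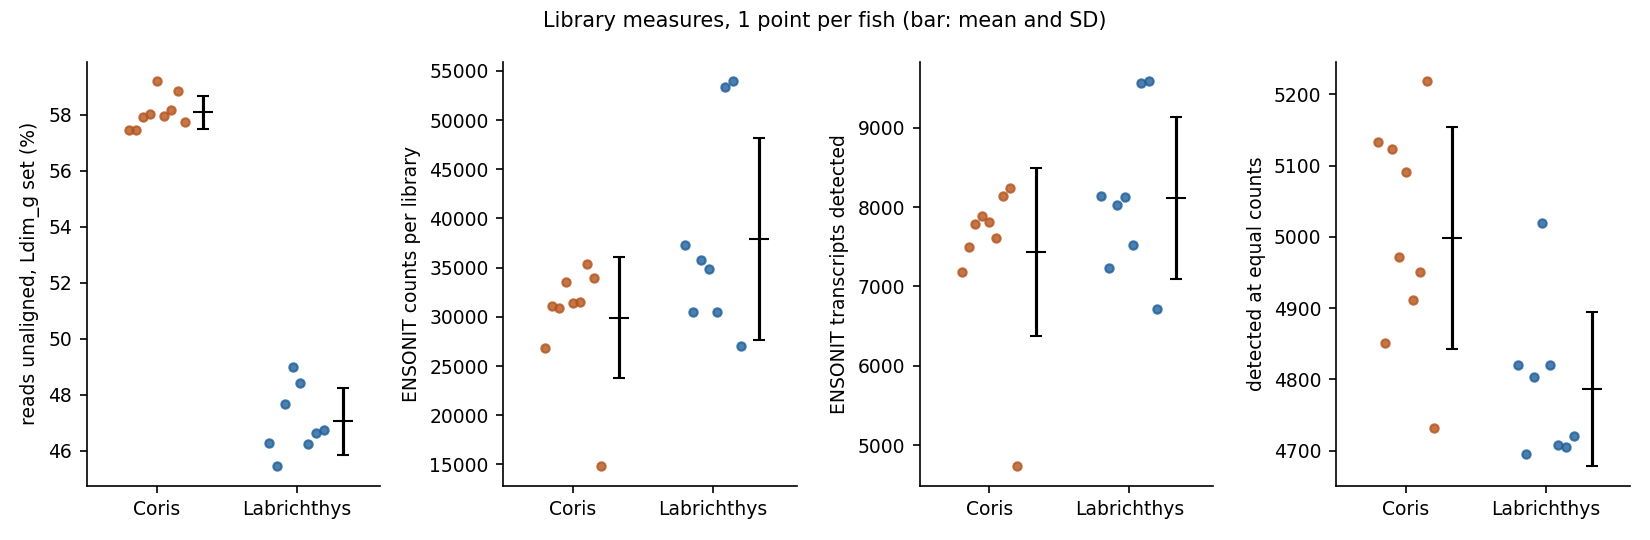
Library measures of the 9 Coris and 8 Labrichthys fish (points) with mean and SD (bars): percent of reads unaligned in the Ldim_g set, ENSONIT counts per library, ENSONIT transcripts detected, and transcripts detected after thinning each library to 14800 counts. Unaligned shares do not overlap, and the order of the means of transcripts detected turns after thinning.

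Coris and Labrichthys differed in 178 of 438 tested ENSONIT transcripts, which is 40.6% of those tested (edgeR quasi-likelihood test, adjusted p below 0.05). Of these, 86 were higher in Coris (19.6%) and 92 higher in Labrichthys (21.0%). Most of the called differences were modest. The median absolute log2 fold change was 0.94 among those higher in Coris and 0.94 among those higher in Labrichthys, and 0.23 among the 260 that did not pass. A called change of 1 or more on the log2 scale was reached by 37 transcripts higher in Coris (8.45%) and 43 higher in Labrichthys (9.82%), and a change of 2 or more by 18 and 21. Over all 438 transcripts the median log2 fold change, Coris minus Labrichthys, was -0.04, so the scaling left the bulk of transcripts level.

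Many transcripts could be bounded. For 287 of the 438 ENSONIT transcripts (65.5%) the 95% interval of the log2 fold change lay between -1 and 1. For 27 it lay wholly above 1 and for another 27 wholly below -1. The share of calls changed little with abundance. Of the 110 least abundant tested transcripts (mean 444 to 805 CPM, which is counts per 1e6 counts of the tested features) 41.8% passed, and of the 110 most abundant (2383 to 32005 CPM) 45.5% passed. The size of the called changes was larger at the low end. The median absolute log2 fold change of called transcripts was 1.89 in the 110 least abundant and 0.79 in the 110 most abundant. Over all transcripts of the same groups, called or not, it was 0.50 and 0.32. At low counts a larger change is needed to pass, and the part of this selection was not tested.

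The filter on low counts shaped this set. The CPM of the filter were taken over all ENSONIT counts, not over the tested transcripts alone. Its cutoff is therefore on another scale than the CPM levels given above and below. On the scale of the filter, a cutoff of 317 CPM was reached in at least 50% of the fish of both species by 341 transcripts. Among them 52 were higher in Coris and 61 in Labrichthys (33.1% called). Another 54 transcripts reached the cutoff in at least 50% of the fish in Coris only, and 43 in Labrichthys only. Such a transcript could still reach it in fewer fish of the other species. It was kept mostly for its level in 1 species, so a difference is part of how it was chosen. Of these 54, 34 were called higher in Coris, and of these 43, 31 higher in Labrichthys.

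The Ldim_g counts gave more calls. Of 487 tested genes 298 differed (61.2%), with 135 higher in Coris (27.7%) and 163 higher in Labrichthys (33.5%). The median absolute log2 fold change of the called genes was 0.81 for those higher in Coris and 0.99 for those higher in Labrichthys. With called changes of 1 or more on the log2 scale there were 46 higher in Coris (9.45%) and 80 higher in Labrichthys (16.4%), and of 2 or more 19 and 35. Beside these counts stands the larger share of reads in genes in Labrichthys in the same set, whose part was not tested. The cutoff of the filter was 315 CPM in this set, again taken over all counts in genes and not over the tested genes alone. Only Labrichthys reached it in at least 50% of its fish for 94 genes, of which 77 were called. Only Coris did for 48, of which 38 were called, and among the 345 genes that reached it in both species 97 were higher in Coris and 86 higher in Labrichthys. The 95% interval lay between -1 and 1 for 241 genes (49.5%). The excess of genes higher in Labrichthys was not seen among the genes that both species expressed above the cutoff, and that difference in direction was not tested.

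**Figure D2:**
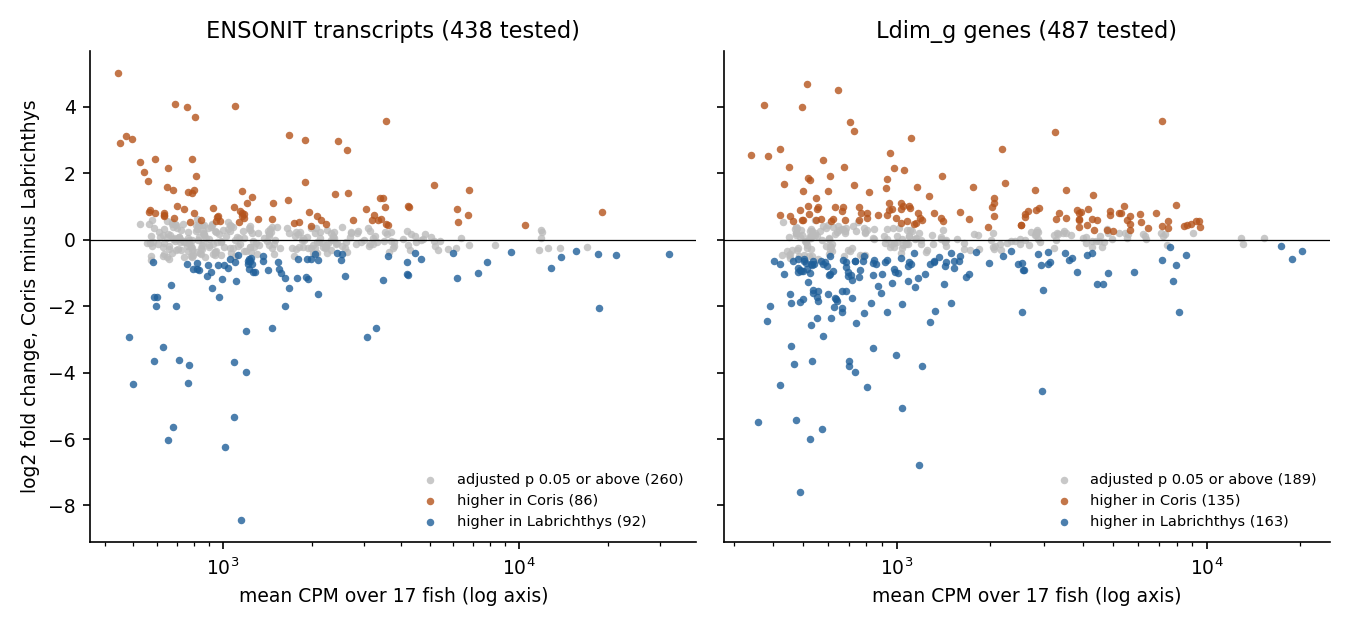
Log2 fold change, Coris minus Labrichthys, against mean CPM over the 17 fish (log axis) for 438 ENSONIT transcripts (left) and 487 Ldim_g genes (right). Orange points were higher in Coris (86 and 135), blue points higher in Labrichthys (92 and 163), and grey points did not pass an adjusted p of 0.05.

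Shares of the tested counts were summed over the called features, and the tested ENSONIT transcripts held 51.8% of all ENSONIT counts. The 86 transcripts higher in Coris took 24.7% ± 1.70 of the tested counts in Coris and 11.3% ± 1.16 in Labrichthys. The 92 transcripts higher in Labrichthys took 21.6% ± 0.695 in Coris and 37.1% ± 0.737 in Labrichthys. In the Ldim_g counts the 135 genes took 42.5% ± 1.1 and 24.4% ± 0.934, and the 163 genes took 20.2% ± 0.911 and 39.0% ± 1.1 in the same order of species. These shares describe sets picked by the same values and are no further test.

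In 73 ENSONIT transcripts (16.7% of 438) the fish of the 2 species did not overlap at all, 35 of them higher in every Coris fish (7.99%) and 38 higher in every Labrichthys fish (8.68%). All 73 also passed the edgeR test. In the Ldim_g counts 121 genes (24.8%) did not overlap, 53 higher in Coris (10.9%) and 68 higher in Labrichthys (14.0%), and all 121 passed too. Those that did not overlap were of 2 kinds, features almost without counts in the lower species (at most 3 counts over all its libraries) and features present in both at different levels, called graded below. The first kind held 1 ENSONIT transcript higher in Coris and 4 higher in Labrichthys, and 0 and 6 Ldim_g genes. The second held 34 and 34 ENSONIT transcripts, and 53 and 62 Ldim_g genes. The features taken from these 2 kinds below were chosen for passing the test without overlap. Their separation and small adjusted p are therefore part of the choice. Those of the first kind also passed the filter on low counts only through the higher species. So did the graded feature of largest fold in each direction of both sets, which was below the cutoff in every fish of the lower species.

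ENSONIT00000022423.1 had 0 counts in all 9 Coris fish and 395 counts in the 8 Labrichthys fish. Its lowest, median and highest values in Labrichthys were 831, 1954 and 4985 CPM. Every Labrichthys fish was therefore above every Coris fish, and the Labrichthys fish themselves were spread widely, with 3 fish at 831 to 1192 CPM, 2 at 1898 and 2009 CPM and 3 at 3509 to 4985 CPM. Against a floor of 3 counts over the Coris group it was 121-fold higher in Labrichthys (edgeR adjusted p = 2.17e-09). With counting error in both species, the lower 95% limit of the ratio was 98.1. A further 3 transcripts were of this kind. They had 2 or 3 counts over the Coris fish and 217 to 318 over the Labrichthys fish, with mean levels of 1372 to 2137 CPM in Labrichthys (edgeR adjusted p from 1.27e-15 to 2.46e-13).

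ENSONIT00000009757.1 was the reverse case, with 122 counts in Coris and 3 in Labrichthys. It lay at 410, 733 and 1144 CPM (lowest, median, highest) in Coris and at 0, 0 and 57.5 CPM in Labrichthys. A count was seen in 3 of 8 Labrichthys fish and in all 9 Coris fish, and the lowest Coris fish was the shallow Coris batuensis 10. The ratio of scaled counts was 44.2 with a 95% counting interval of 14.8 to 217, and the fitted log2 fold change was 5.01 (SE 0.42, adjusted p = 8.94e-12 by edgeR). Counting limits and intervals, here and elsewhere, were taken from counts pooled over the fish of each species. They cover counting error only and leave out the spread between fish, so they are too narrow as limits for the species. They also treat each count as a separate molecule, which could not be checked because no molecular identifiers are described.

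Among transcripts present in both species, ENSONIT00000001735.1 had the largest log2 fold change higher in Coris. Its lowest, median and highest values were 664, 1131 and 1950.3 CPM in Coris and 0, 60.7 and 192 CPM in Labrichthys. The fish did not overlap, with 173 and 10 counts behind the values and a log2 fold change of 4.09 (SE 0.36, adjusted p = 3.3e-11 by edgeR). The next 5 by fold averaged 1360.4 to 6227 CPM in Coris and 83.5 to 537 CPM in Labrichthys, with log2 fold changes of 3.16 to 4.03. The best measured of them had 890 counts in Coris and 80 in Labrichthys, and averaged 6227 ± 1334 and 537 ± 174 CPM, a log2 fold change of 3.56 (SE 0.19, adjusted p = 1.27e-15 by edgeR).

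ENSONIT00000010907.1 was the counterpart higher in Labrichthys. It lay at 1110.5, 2368 and 3788 CPM (lowest, median, highest) in Labrichthys and at 0, 56.5 and 137 CPM in Coris. Behind these values were 352 counts in Labrichthys and 7 in Coris, where 4 fish had none. The gap between the lowest Labrichthys fish and the highest Coris fish was wide, and the log2 fold change, Coris minus Labrichthys, was -5.33 (SE 0.38, adjusted p = 2.76e-13 by edgeR). The next 5 averaged 1017 to 2370 CPM in Labrichthys and 39.4 to 159 CPM in Coris, with log2 fold changes of -4.35 to -3.68.

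The Ldim_g set showed a similar range of patterns, given here by rank, except that none of its genes without overlap was nearly absent from Labrichthys. The gene with the largest fold higher in Coris had lowest, median and highest values of 621, 957 and 1272 CPM in Coris and 0, 34.9 and 77.4 CPM in Labrichthys. With 161 counts in Coris and 7 in Labrichthys, its log2 fold change was 4.67 (SE 0.34, adjusted p = 1.16e-13 by edgeR). The gene with the lowest p of the first 6 in that direction was abundant, with a mean of 12630.4 ± 1814 CPM in Coris against 1100.2 ± 365 CPM in Labrichthys. The log2 fold change came to 3.57 (SE 0.15, adjusted p = 4.46e-20 by edgeR). These 2 genes were chosen from those without overlap, so their separation is part of the choice, and they differ in level.

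In the other direction, the most abundant Ldim_g gene nearly absent from Coris had 589 counts in Labrichthys and 3 in Coris. Its Labrichthys values were 1131, 1759 and 4492 CPM (lowest, median, highest), and 7 of 9 Coris fish had no count. The ratio of scaled counts was 152 with a 95% counting interval of 51.8 to 740. Of the other 5 genes of this kind, 1 had 0 counts in Coris against 230 in Labrichthys. It was 59.4-fold higher against a floor of 3 counts over the group, with a lower 95% counting limit of 47.9. Among genes present in both species, the largest fold higher in Labrichthys came with values of 967, 2266 and 3214 CPM there and 0, 48.1 and 155 CPM in Coris. No fish overlapped, with 482 counts in Labrichthys and 10 in Coris. The log2 fold change was -5.08 (SE 0.36, adjusted p = 8.82e-14 by edgeR).

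Levels of the named features in the 3 facultative cleaner species are set beside those of the pair. In these species 2 libraries correlated best with another species in both sets of counts, Thalassoma lunare 4 (r = 0.951 with Halichoeres and 0.832 with its own label in the ENSONIT counts) and Halichoeres melanurus 2 (r = 0.949 with Thalassoma and 0.808 with its own label). Another library, Hemigymnus melapterus 4, held 6936 ENSONIT counts and had r = 0.542 with its own species. None of them entered the main comparison of Coris with Labrichthys, but all 3 entered the alternative fit to all 46 libraries. Levels in the cleaners are given over all libraries and, where the mean moves by over 1.5 times, also without these 3. All 46 libraries were scaled together for these levels, which makes them differ slightly from those above. SDs are over 9 Halichoeres, 10 Hemigymnus and 10 Thalassoma fish, 1 fewer in each without those libraries.

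ENSONIT00000022423.1 had 0 counts in Halichoeres and Hemigymnus and 7 counts in 2 of 10 Thalassoma fish. Labrichthys averaged 2355 ± 1542 CPM and Thalassoma 27.8 ± 73.3 CPM. For ENSONIT00000010907.1 Labrichthys led at 2177 ± 804 CPM. Hemigymnus followed at 224 ± 139 CPM, then Coris at 52.0 ± 55.0 CPM, Thalassoma at 39.9 ± 32.6 CPM and Halichoeres at 22.0 ± 35.9 CPM, the last 3 within their spread of each other. For both transcripts each Labrichthys fish was above every fish of the other 4 species, and Coris fish overlapped the cleaners. The other 3 ENSONIT transcripts nearly absent from Coris held 1320 to 2066 CPM on average in Labrichthys, and for 2 of them the highest cleaner mean was 126 CPM.

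The order was the opposite for the transcripts higher in Coris. ENSONIT00000009757.1 stood at 805 ± 237 CPM in Coris. Its mean was 76.2 ± 93.1 CPM in Thalassoma, 66.3 ± 64.1 CPM in Halichoeres, 20.6 ± 47.0 CPM in Hemigymnus and 18.0 ± 25.7 CPM in Labrichthys, and these 4 species overlapped. ENSONIT00000001735.1 stood at 1221 ± 403 CPM in Coris and at 136 ± 108 CPM in Thalassoma, with 71.1 ± 65.3 CPM in Labrichthys and less in Halichoeres and Hemigymnus. The lowest Coris fish, at 399 and 632 CPM, lay above the highest fish elsewhere, at 277 CPM for each transcript and in both cases Thalassoma lunare 4. These levels are descriptions, and no test was made against the cleaners.

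**Figure D3:**
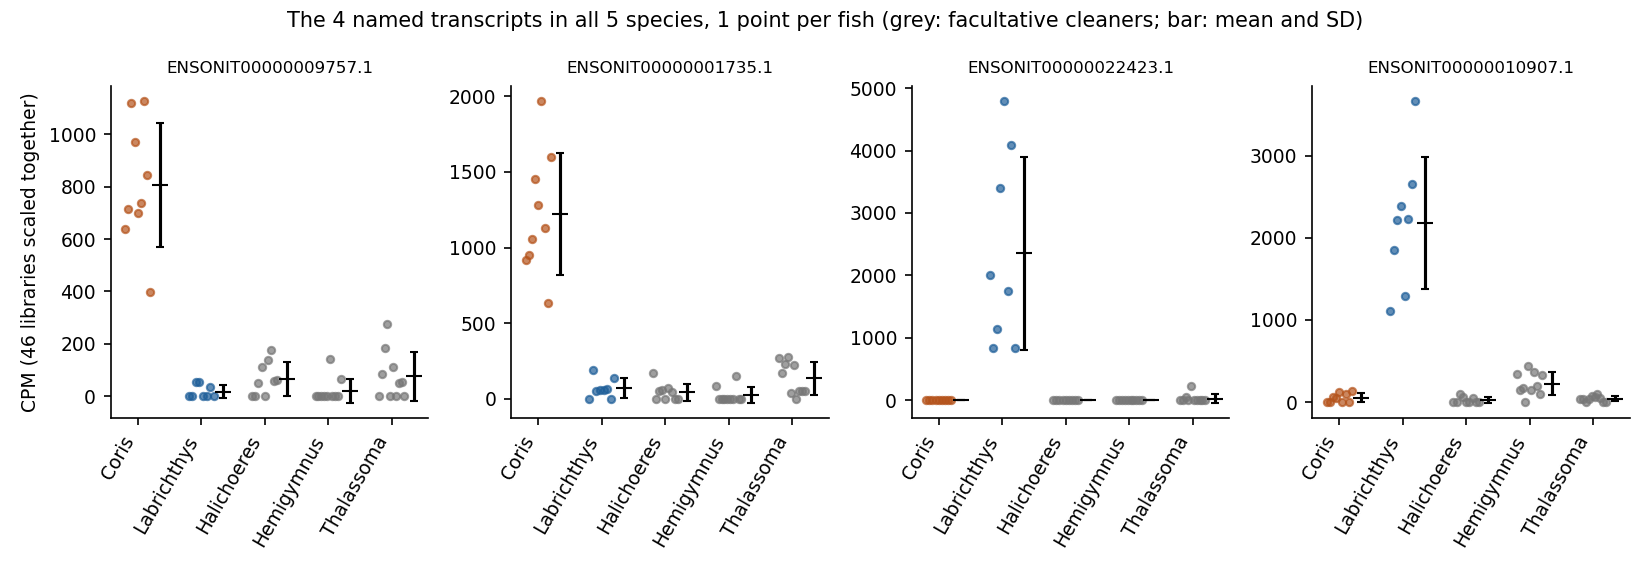
CPM of the 4 named ENSONIT transcripts in each fish of the 5 species (46 libraries scaled together), with mean and SD per species as bars; grey points are facultative cleaners. Coris stands above the 4 other species in the first 2 panels and Labrichthys in the last 2.

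Other strong differences went with a low level in 1 species of a feature that all or most of the cleaners held at high levels. The sixth graded transcript higher in Labrichthys averaged 2056 ± 685 CPM there against 155 ± 113 CPM in Coris. Its means in the cleaners were 1925 ± 521 CPM (Halichoeres), 2074 ± 969 CPM (Hemigymnus) and 1506 ± 249 CPM (Thalassoma), so Coris alone was low. The second graded Ldim_g gene higher in Labrichthys averaged 5901 ± 1408 CPM there, 244 ± 160.1 CPM in Coris and 3234 to 6375 CPM in the cleaners. Labrichthys was the lowest for the fourth graded ENSONIT transcript higher in Coris, with 100.4 ± 69.9 CPM against 1406 ± 393 CPM in Coris. Hemigymnus held it at 5298 ± 1844 CPM, Halichoeres at 3446 ± 1582 CPM and Thalassoma at 616 ± 823 CPM, the last being 369 ± 138 CPM without the library that stood apart. Thalassoma thus lay below Coris as well, and the cleaners were not alike for this transcript.

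Some differences divided the cleaners. The third transcript nearly absent from Coris averaged 1379 ± 369 CPM in Labrichthys and a similar 1434 ± 565 CPM in Thalassoma, against 19.8 ± 40.4 CPM in Coris and 12.0 ± 25.8 CPM in Hemigymnus. Halichoeres was low as well, at 221 ± 497 CPM, or 57.3 ± 71.4 CPM without the library that stood apart. The abundant Ldim_g gene higher in Coris averaged 12208 ± 1665 CPM there, with Thalassoma at 10814 ± 3321 CPM and Hemigymnus at 8847 ± 2773 CPM. Halichoeres was at 3169 ± 3493 CPM, or 2017 ± 408 CPM without that library, nearer the 1089.9 ± 363 CPM of Labrichthys.

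Hemigymnus held intermediate levels of several Ldim_g genes that were nearly absent from Coris. The second of these by level averaged 1191 ± 649 CPM in Labrichthys, 621 ± 254 CPM in Hemigymnus, 161 ± 82.7 CPM in Halichoeres, 154 ± 109 CPM in Thalassoma and 15.8 ± 24.0 CPM in Coris. The fifth averaged 983 ± 161 CPM in Labrichthys, 617 ± 257 CPM in Hemigymnus and 14.4 ± 29.4 CPM in Coris. The gene with 0 counts in Coris, by contrast, was at 1031 ± 201 CPM in Labrichthys and at means of 6.92 to 13.8 CPM in the cleaners, less than 1 count per fish. Among genes higher in Coris, the second graded one averaged 1145 ± 471 CPM in Coris and 1158 ± 536 CPM in Hemigymnus, which lay within their spread, and 46.05 ± 29.6 CPM in Labrichthys.

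Counted over all 178 called ENSONIT transcripts, the 3 cleaner means lay on both sides of the midpoint between Coris and Labrichthys in 94, all nearer Coris in 48 (27.0%) and all nearer Labrichthys in 36 (20.2%). Among the 260 transcripts that did not pass, the last 2 shares were 22.3% and 17.3%. In the Ldim_g counts 81 of 298 called genes (27.2%) had all cleaners nearer Coris and 51 (17.1%) nearer Labrichthys, beside 18.5% and 19.6% of the 189 genes that did not pass. Without the 3 libraries the ENSONIT shares became 22.5% and 18.5% of the called transcripts, beside 23.5% and 16.9% of those that did not pass, so the order of called and not called turned for the share nearer Coris. The Ldim_g shares became 23.8% and 15.4%, beside 18.0% and 21.2%. The cleaners were divided in 52.8% of called and 60.4% of other ENSONIT transcripts and in 55.7% and 61.9% of Ldim_g genes. Without the 3 libraries these shares were nearly equal, 59.0% and 59.6% for ENSONIT and 60.7% and 60.8% for Ldim_g. For most features the cleaner means thus lay on both sides of the midpoint. That does not show whether 1 of the pair stood apart from all other species. These shares are a description with no test.

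The most abundant transcripts differed too, mostly by small amounts. Of the 10 ENSONIT transcripts with the highest mean CPM over the 17 fish, 7 were higher in Labrichthys, 1 was higher in Coris and 2 did not pass, with 95% intervals of -0.44 to -0.03 and -0.50 to -0.03 on the log2 scale. The fourth stood apart, at 7455 ± 1045 CPM in Coris and 31027 ± 4542 CPM in Labrichthys. No fish overlapped, and the log2 fold change was -2.05 (SE 0.11, adjusted p = 1.27e-15 by edgeR). The one higher in Coris, the third by mean, averaged 23985 ± 7523 and 13451 ± 3821 CPM, with a log2 fold change of 0.83 (SE 0.16, adjusted p = 7.32e-05 by edgeR). The other 6 higher in Labrichthys had log2 fold changes between -0.85 and -0.34. In one fit to all 46 libraries 4 of the 10 were higher in Labrichthys and 1 in Coris, and under the DESeq2 Wald test 6 and 1. The fit to all 46 libraries estimated the spread over the fish of all species, with the libraries that stood apart.

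Of the 10 most abundant Ldim_g genes 3 were higher in Labrichthys and 3 higher in Coris, with log2 fold changes from -0.59 to 0.56, and 4 did not pass. The 95% intervals of these 4 all lay between -0.34 and 0.39 on the log2 scale. In one fit to all 46 libraries 1 was higher in Labrichthys and 2 in Coris.

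**Figure D4:**
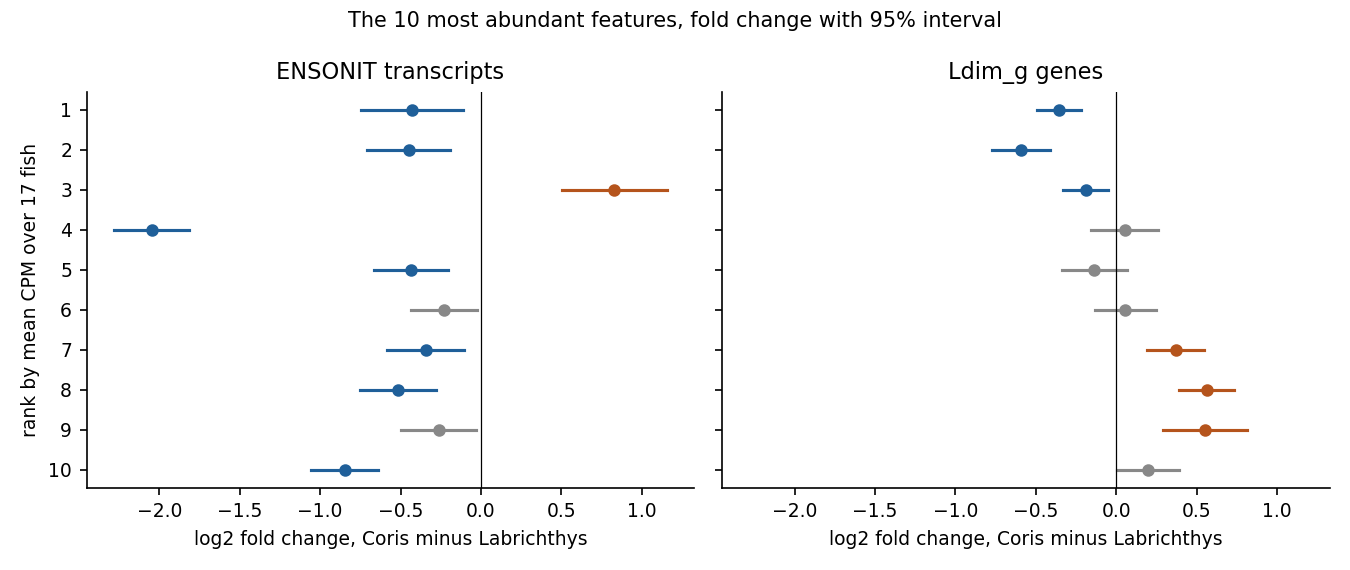
Log2 fold change, Coris minus Labrichthys, with its 95% interval for the 10 features of highest mean CPM over the 17 fish in each set of counts, ordered by mean CPM. Orange was higher in Coris, blue higher in Labrichthys and grey did not pass; the fourth ENSONIT transcript, at -2.05, is the only one beyond -1 or 1.

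The spread among fish of one species was estimated in each species apart. The common biological coefficient of variation in the ENSONIT counts was 0.189 among the 9 Coris fish and 0.218 among the 8 Labrichthys fish, and 0.157 in Coris without Coris batuensis 10. In the Ldim_g counts it was 0.162 and 0.194, and 0.142 without that library. This estimate was higher in Labrichthys in both sets. The median SD of log2-CPM went the other way, at 0.383 in Coris and 0.375 in Labrichthys (ENSONIT) and 0.373 and 0.349 (Ldim_g). Without Coris batuensis 10 it was 0.327 and 0.342 in Coris, below Labrichthys in both sets. No test was made of these differences.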

How the data were processed

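Per the labels' protocols, RNA was extracted with a kit that includes a DNase step, and libraries were made with poly-dT priming and PCR. Trimming and alignment tools named in the submitters' processing notes are cutadapt 2.8, BWA and SAMtools. Neither the references nor the read counter is given in the sources used here, nor how reads shared by near-identical transcripts were treated. The authors deposited 2 tables of raw counts per fish, on 26788 ENSONIT and 28134 Ldim_g identifiers. The 1 unnamed ENSONIT line held 0 counts. The 5 lines that name no gene held most of the 11323665 reads of the 17 libraries in the second tables: 52.1% unaligned, 39.9% outside genes, 2.86% of low alignment quality, 0.00576% ambiguous and 0% not unique, with 5.09% in genes. They stayed out of library sizes and tests.

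The 17 libraries were fitted with edgeR 4.0.16 under R 4.3.3: filterByExpr by species (minimum count 10, minimum total 15), library sizes over the features kept, TMM scaling, glmQLFit and glmQLFTest, and Benjamini-Hochberg adjustment over all features tested, with a threshold of 0.05. The 438 ENSONIT transcripts tested held 51.8% of the counts, and the 487 Ldim_g genes 67.5%. One count in the median library was 59.0 and 47.6 CPM. The SE of a log2 fold change is its size over the square root of F. Log2-CPM used a prior count of 2. For the position of the cleaners, species means were compared as log2(CPM + 10). Counts were also simulated from the mean levels and library sizes, with the same biological variation for every feature. Of features changed by a log2 fold of 1, 96% were recovered in the ENSONIT set and 98% in the Ldim_g set. Of unchanged features 1.26% and 2.09% were called. The simulation does not give the recovery for features of other spread.

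Named features passed the test without overlap between fish. They were ranked by level in the higher species where the lower held at most 3 counts, and otherwise by fold. The identifiers of the first of each kind are printed for the ENSONIT set only. The members, lists and tests were chosen with earlier results of these data known. Replicates are separate fish by label. None of 64 pairs of libraries within a species was identical in either set, and the highest chi-square p over features with at least 20 counts was 8.61e-09 in the ENSONIT and 0.00592 in the Ldim_g counts. The labels state no batch. Alternatives were other scalings, DESeq2 1.42.0, other filters, a minimum fold, thinning, a block on the fish number, all 46 libraries, and leaving out each library.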

Additional observations from a re-analysis of the deposited data

Results flagged for a closer look

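Values were checked in 34 groups, each within 1 species, with as many groups of Labrichthys as of Coris. The library Coris batuensis 10 lay far from the other Coris fish in 5 groups, and no other library was flagged. Chance gives about 1 in 20 groups when they are independent, and these 5 values come from 1 library and are not. It was the shallowest, with 14800 ENSONIT counts and 287241 reads in the Ldim_g set, and detected 4732 ENSONIT transcripts. Its correlation with its own species was the lowest of the 17, 0.861 by ENSONIT counts and 0.914 by Ldim_g counts. Without it, 172 ENSONIT transcripts differed between the species, 85 higher in Coris and 87 higher in Labrichthys, of 433 tested, and 160 of the 178 transcripts were called again in the same direction.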

How the results depend on the processing

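Among features called in both the main fit and an alternative, none was reversed in direction in either set. Calls lost or not tested could not count as reversed. In one fit to all 46 libraries 154 of 178 transcripts and 256 of 298 genes were called again in the same direction. After thinning 83 of these transcripts and 155 of these genes were tested, and 68 and 130 were called again. Without a filter on low counts 1451 of 21726 ENSONIT transcripts differed (588 higher in Coris, 863 higher in Labrichthys) and 1690 of 12998 Ldim_g genes (613 and 1077). A filter at 50 mean CPM in either species, with CPM over all counts of the set, gave 1512 of 3980 (733 and 779) and 1470 of 2919 (570 and 900). A minimum absolute log2 fold change of 1 left 80 (37 and 43) and 126 (46 and 80). Thinned to the shallowest library, with 207 and 259 features tested, there were 71 (36 and 35, 34.3% called) and 139 (66 and 73, 53.7% called). The main fit called 40.6% and 61.2%. Features without overlap fell from 35 and 38 of 438 to 15 and 9 of 207 in the ENSONIT counts. In the Ldim_g counts they fell from 53 and 68 of 487 to 21 and 26 of 259. These numbers fell along with the features tested and also as shares of them, and the part of depth was not tested. One fit to all 46 libraries called 255 of 720 and 383 of 753. DESeq2 called 172 (39.3%) and 293 (60.2%). Leaving out each library gave 159 to 202 transcripts (37.1% to 43.3% of those tested) and 270 to 317 genes (57.9% to 62.2%). The named transcripts that were tested again stayed past the threshold; none was tested after thinning, and ENSONIT00000009757.1 was filtered out in 8 of 17 fits without a library. For library measures, the difference in detected transcripts became 212 after thinning. Without single libraries the difference in ENSONIT counts ran from -9530.4 to -5675 and that in Ldim_g reads from -212572 to -131507, with the call of the first gained without Labrichthys unilineatus 10 (exact permutation adjusted p = 0.0222) and that of the second kept only without Coris batuensis 8 or Labrichthys unilineatus 2, 5, 6 or 10.

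Fish numbers recur across species, but the labels give them no meaning, and deviations of same-numbered fish correlated at -0.328 to 0.189 over 7 pairs in the ENSONIT counts and -0.0817 to 0.207 in the Ldim_g counts, so the fish were not taken as paired. With the number as a block on the 14 fish of shared numbers, 143 of 421 transcripts tested (34.0%) and 275 of 472 genes (58.3%) differed. In the same fish without the block 157 (37.3%) and 270 (57.2%) differed, a comparison added after seeing the data. In the ENSONIT counts 0 of 7 and in the Ldim_g counts 1 of 7 Coris fish correlated best with its own number.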
